A study of Mus musculus with 46 samples.

Results

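The first hour after loss of liver tissue was examined in old mice by comparing 3 arrays from livers taken 1 h after partial hepatectomy (PH) with 3 arrays from livers of unoperated animals of the same age (0 h). PH removed 70% of the liver. The mice were male CB6F1 hybrids of 25 to 27 months, supplied by the National Institute on Aging, with no engineered allele named in the labels, and PH was done under avertin and isoflurane. These 6 arrays were chosen by their titles from a series of 46 arrays in 18 groups. The other groups used here were old liver 0.5 h, 2 h and 4 h after PH (3 arrays each), old liver 0.5 h and 1 h after a sham operation (2 arrays each), and young liver of 5 to 6 months from the Jackson Laboratory at 0 h and 1 h after PH (3 arrays each). Age and supplier therefore cannot be told apart. Whole liver RNA was hybridised to the Affymetrix Murine Genome U74v2 array, and each value is a log2 expression value made by RMA, so that a difference of 1 is a doubling. All 12422 probe sets that are not controls were tested, and a probe set was called when its limma adjusted p was under 0.05. A gene was represented by its probe set with the highest mean.

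After hepatectomy the remaining hepatocytes leave quiescence and the remnant regains its mass. Within the first hour genes that need no new protein synthesis for their transcription are switched on, the immediate early genes. They encode transcription factors such as FOS, JUN and ATF3 and feedback regulators of signalling. In parallel, cytokines made by Kupffer cells act through NF-kB and through IL-6 and STAT3, and the liver turns on stress and acute phase genes, while surgery and anaesthesia by themselves also change hepatic glucocorticoid, insulin and metal responses.

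The labelled tissue carried its markers. Of 8 hepatocyte markers, 7 were measured, and Alb, which encodes serum albumin, ranged from 13.52 to 13.96 over the 6 arrays, Apoa1 from 13.63 to 14 and Cps1, the entry enzyme of the urea cycle, from 12.32 to 12.94. Precision is limited by the 3 arrays per group. Whether each array came from its own animal is not stated in the labels, and the p-values then measure only how far these arrays differ, which may be technical. PH replicate 3 differed most from the rest. In a principal component analysis of the 6 arrays, the leading component held 60.4% of the variance, and on it the 0 h arrays had scores of -8.34, -13.1 and -20.6, PH replicates 1 and 2 had 0.985 and 1.55, and PH replicate 3 had 39.5. The mean of 9 bacterial spike-in probe sets was 9.70, 9.74 and 10.6 in the 0 h arrays and 9.25, 7.88 and 8.39 in the PH arrays, a difference of -1.51 (two-sided exact permutation p = 0.1, the smallest that 3 against 3 arrays allow). In young liver the spike-in mean was 9.18, 10.4 and 8.79 at 0 h and 8.35, 8.24 and 7.76 at 1 h after PH. The 3′ minus 5′ signal of the Gapdh control, a check of RNA quality, averaged 0.298 in old 0 h and 0.387 in old PH arrays (exact permutation p = 0.1). That of the beta-actin control averaged 0.944 and 1.05 (exact permutation p = 0.5). Because PH replicate 3 stood apart, differences are also given without it where that ended a call or moved the value.

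In old liver 1 h after PH, 201 of 12422 probe sets were called, which is 1.62%. Of these, 150 were higher (1.21%) and 51 were lower (0.411%), and 68 of the higher and 10 of the lower differed by more than 1 log2 unit. At an unadjusted p under 0.05, 1889 probe sets passed. Over genes, 117 of 8251 were called higher (1.42%) and 37 lower (0.448%), and the median difference over all genes was 0.01. The count depended on PH replicate 3. Without it 25 probe sets were called, all 25 of them higher and all among the 201. Without PH replicate 1 the count was 568, and without PH replicate 2 it was 416. Without 0 h replicates 1, 2 and 3 it was 165, 72 and 56. When each array was centred on its median, 158 were called, and the share of higher calls moved from 74.6% to 59.5%. PH replicate 3 had the highest PH value in 114 of the 150 probe sets called higher (76%) and the lowest in 42 of the 51 called lower (82.4%). Of the named genes and singled-out probe sets, 59 were called higher. Leaving out 0 h replicates 1, 2 and 3 ended 12, 23 and 25 of these calls, and leaving out PH replicates 1, 2 and 3 ended 2, 4 and 35. The 59 include probe sets singled out from those called in each of these fits, whose calls could not end. The share of the 59 that held is therefore too high. For the 25 named genes called lower the numbers were 13, 21 and 19, and 0, 5 and 25. Over all probe sets with a positive difference PH replicate 3 was the highest in 46.3%, and over all with a negative difference the lowest in 69.1%.

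**Figure D1:**
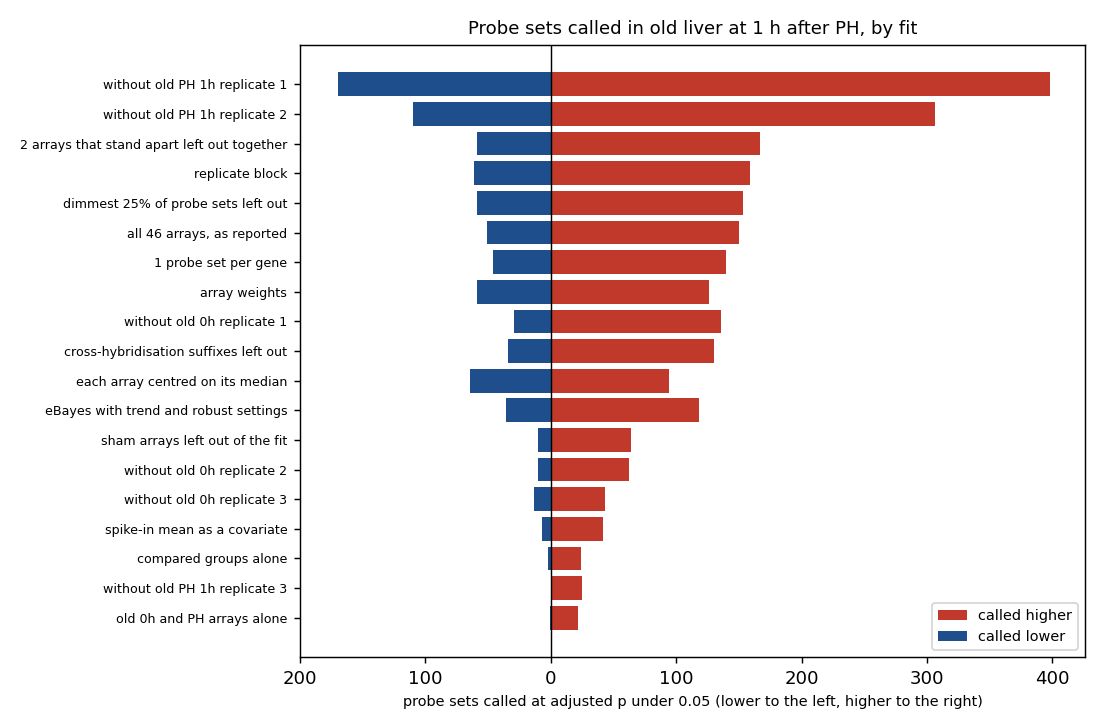
Number of probe sets called at an adjusted p under 0.05 in old liver 1 h after PH against 0 h, by fit, with higher calls to the right and lower calls to the left of 0. The fit with all 46 arrays called 150 higher and 51 lower, and the fit without PH replicate 3 called 25 higher and 0 lower.

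The start regions of 5 of the genes that rose are shown with matches to motifs known from early and metal-responsive genes. A match is a description of the letters and not a measured binding site. Each run of 300 bases is the sequence from 250 bases before the first base of the transcript to 50 bases from that base on, 5′ to 3′ on the gene's own strand, from RefSeq on build GRCm38.p6, where 27018 genes have such a sequence. In the metallothionein genes the capitals mark the metal response core TGCNCNC on either strand. Mt1 lies at chr8:94178839-94179138, plus strand, and Mt2 at chr8:94172368-94172667, plus strand.
Mt1: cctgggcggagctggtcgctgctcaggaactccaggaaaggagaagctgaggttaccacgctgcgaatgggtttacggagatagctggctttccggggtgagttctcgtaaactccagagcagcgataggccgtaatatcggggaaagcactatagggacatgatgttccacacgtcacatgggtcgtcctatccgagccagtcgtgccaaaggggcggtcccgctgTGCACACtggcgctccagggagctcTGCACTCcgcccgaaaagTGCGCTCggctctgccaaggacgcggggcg
Mt2: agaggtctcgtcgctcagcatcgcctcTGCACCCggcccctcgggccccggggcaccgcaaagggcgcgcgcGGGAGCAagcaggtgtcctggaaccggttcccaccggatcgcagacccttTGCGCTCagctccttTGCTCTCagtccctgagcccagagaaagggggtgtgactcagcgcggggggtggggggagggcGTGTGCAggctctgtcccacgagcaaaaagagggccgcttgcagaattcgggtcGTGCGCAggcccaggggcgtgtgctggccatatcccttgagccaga
The core had 3 matches in Mt1 and 6 in Mt2. At least 1 match was present in 50.4% of all 27018 promoters, at least 3 in 6.95% and at least 6 in 0.207%. In the following sequences the capitals mark TGACG, the core of the cAMP response element TGACGTCA, on either strand. Fos lies at chr12:85473640-85473939, plus strand, Atf3 at chr1:191183284-191183583, minus strand and Btg2 at chr1:134079106-134079405, minus strand.
Fos: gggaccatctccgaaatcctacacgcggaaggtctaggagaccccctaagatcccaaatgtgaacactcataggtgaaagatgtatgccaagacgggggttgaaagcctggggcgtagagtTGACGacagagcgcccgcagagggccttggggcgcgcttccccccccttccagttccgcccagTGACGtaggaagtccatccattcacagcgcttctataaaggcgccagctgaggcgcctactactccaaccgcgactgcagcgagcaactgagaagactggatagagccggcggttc
Atf3: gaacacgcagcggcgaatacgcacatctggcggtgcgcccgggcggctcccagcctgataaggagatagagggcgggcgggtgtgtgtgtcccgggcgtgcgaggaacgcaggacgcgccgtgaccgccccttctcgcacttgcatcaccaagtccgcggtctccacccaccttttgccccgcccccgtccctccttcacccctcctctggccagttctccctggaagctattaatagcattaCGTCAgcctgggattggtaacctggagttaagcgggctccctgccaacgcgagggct
Btg2: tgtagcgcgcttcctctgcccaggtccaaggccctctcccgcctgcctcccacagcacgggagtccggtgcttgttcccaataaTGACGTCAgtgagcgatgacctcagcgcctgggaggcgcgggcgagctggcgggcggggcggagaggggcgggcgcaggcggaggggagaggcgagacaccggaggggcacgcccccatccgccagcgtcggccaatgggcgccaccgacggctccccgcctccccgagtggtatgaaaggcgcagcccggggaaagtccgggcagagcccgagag
Fos had 2 matches and Atf3 had 1, while in Btg2 the 2 matches overlap in 1 complete TGACGTCA. TGACG was found in 21% of all promoters, at least 2 matches in 5.2%, and the complete element in 1.88%. Of the 20 named genes with a promoter sequence among those called without each array in turn, 5 held TGACG (25%), namely Atf3, Btg2, Ets2, Ifrd1 and Tnfaip3, a share near that of all promoters. The metal response core was in 17 of these 20 (85%), against 50.4% of all promoters. Of the genes whose start regions are not printed here, Jun and Rhob held no TGACG. The AP-1 motif TGANTCA was in 2 of these 20 (10%), against 7.94% of all promoters, and the serum response element was in 0 of them, against 1.57%.

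A set of 22 probe sets was called in each of the 6 fits that left out 1 array, and all 22 rose. The lowest adjusted p was that of Rcan1, which encodes a feedback inhibitor of the phosphatase calcineurin. Its values were 7.28, 7.18 and 7.0 at 0 h and 9.92, 9.5 and 9.17 after PH. No PH array overlapped the 0 h arrays, PH replicate 3 was the lowest of the PH arrays, and the difference of 2.38 ± 0.26 (SE, limma adjusted p = 1.44e-06) is a 5.2-fold rise. The difference was 2.56 when PH replicate 3 was left out. Jun, the main AP-1 partner of FOS, was at 6.57, 6.55 and 6.64 at 0 h and at 8.36, 8.11 and 8.57 after PH. The 0 h arrays were nearly equal, and Jun rose by 1.76 ± 0.22 (adjusted p = 1.7e-05), and by 1.65 without PH replicate 3.

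Atf3 encodes a stress-induced factor of the ATF/CREB family and was nearly uniform before surgery, at 6.28, 6.13 and 6.08. After PH it was at 9.83, 9.15 and 10.28, a 12-fold rise (3.59 ± 0.55, adjusted p = 0.000179). All 3 PH arrays were far above all 3 control arrays. With all arrays 2 of its 3 probe sets were called, and without PH replicate 3 only the brightest was. Ifrd1, a transcriptional co-regulator, moved from 5.51, 4.77 and 4.72 to 7.97, 6.55 and 7.62 (2.38 ± 0.33, adjusted p = 4.82e-05). Gadd45a, a growth arrest and DNA damage gene, moved from 5.99, 5.45 and 6.49 to 8.71, 7.40 and 8.58 (2.25 ± 0.37, adjusted p = 0.000569). In both genes PH replicate 2 was the lowest PH array and still lay above every 0 h array. Btg2, an antiproliferative gene that is itself an early response gene, moved from 8.93, 8.44 and 8.55 to 10.59, 10.41 and 11.19. Its rise was 2.09 ± 0.34 (adjusted p = 0.000428), and 1.87 without PH replicate 3.

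Mitochondrial carriers were also among the 22. Slc25a25, the ATP-Mg/phosphate carrier of the inner membrane, was at 10.29, 9.22 and 9.40 at 0 h and at 11.26, 11.85 and 11.52 after PH (1.91 ± 0.26, adjusted p = 4.35e-05). Slc25a47, a carrier expressed mainly in liver, moved from 10.47, 10.23 and 10.16 to 11.20, 11.34 and 11.82. Slc25a51, which brings NAD+ into mitochondria, moved from 6.25, 6.09 and 6.18 to 6.86, 6.87 and 6.77, a rise of 0.66 ± 0.09 that was the smallest of the 22 and had tight replicates. C9orf72, which encodes a protein of vesicle traffic and autophagy, was at 5.66, 5.81 and 5.87 at 0 h and at 7.19, 7.66 and 7.56 after PH (1.69 ± 0.23, adjusted p = 4.35e-05). Rhob, a small GTPase gene with early response kinetics, moved from 8.45, 8.15 and 7.54 to 9.76, 9.67 and 9.56. Tiparp, an ADP-ribosyltransferase gene induced through the aryl hydrocarbon receptor, moved from 6.61, 6.16 and 6.09 to 7.55, 7.70 and 8.56, with PH replicate 3 the highest. Rcl1, whose product takes part in processing of the small ribosomal RNA, moved from 9.13, 9.09 and 8.84 to 9.92, 10.18 and 9.93 (0.99 ± 0.17, adjusted p = 0.000786).

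The remaining members of the 22 were Mt2, Igfbp1, Nfkbia (by its dimmer probe set), Tnfaip3 and Ets2, described below, with Wdr92, 1700017B05Rik, Cytip and 1 probe set without a gene name, whose rises lay between 0.93 and 1.52. Tiparp, Rhob, Slc25a47, Slc25a51, Rcl1, Wdr92, 1700017B05Rik, Cytip, the dimmer Nfkbia probe set and the unnamed one were singled out after their values were seen. Over 18 alternative fits, 9 of the 22 were called in every fit in which they were tested, namely Igfbp1, Atf3, Rcan1, Btg2, Jun, C9orf72, Rhob, Rcl1 and Slc25a51. The probe sets given here for Atf3, Igfbp1 and Slc25a51 carry the array maker's suffix for probes that can match several related sequences.

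**Figure D2:**
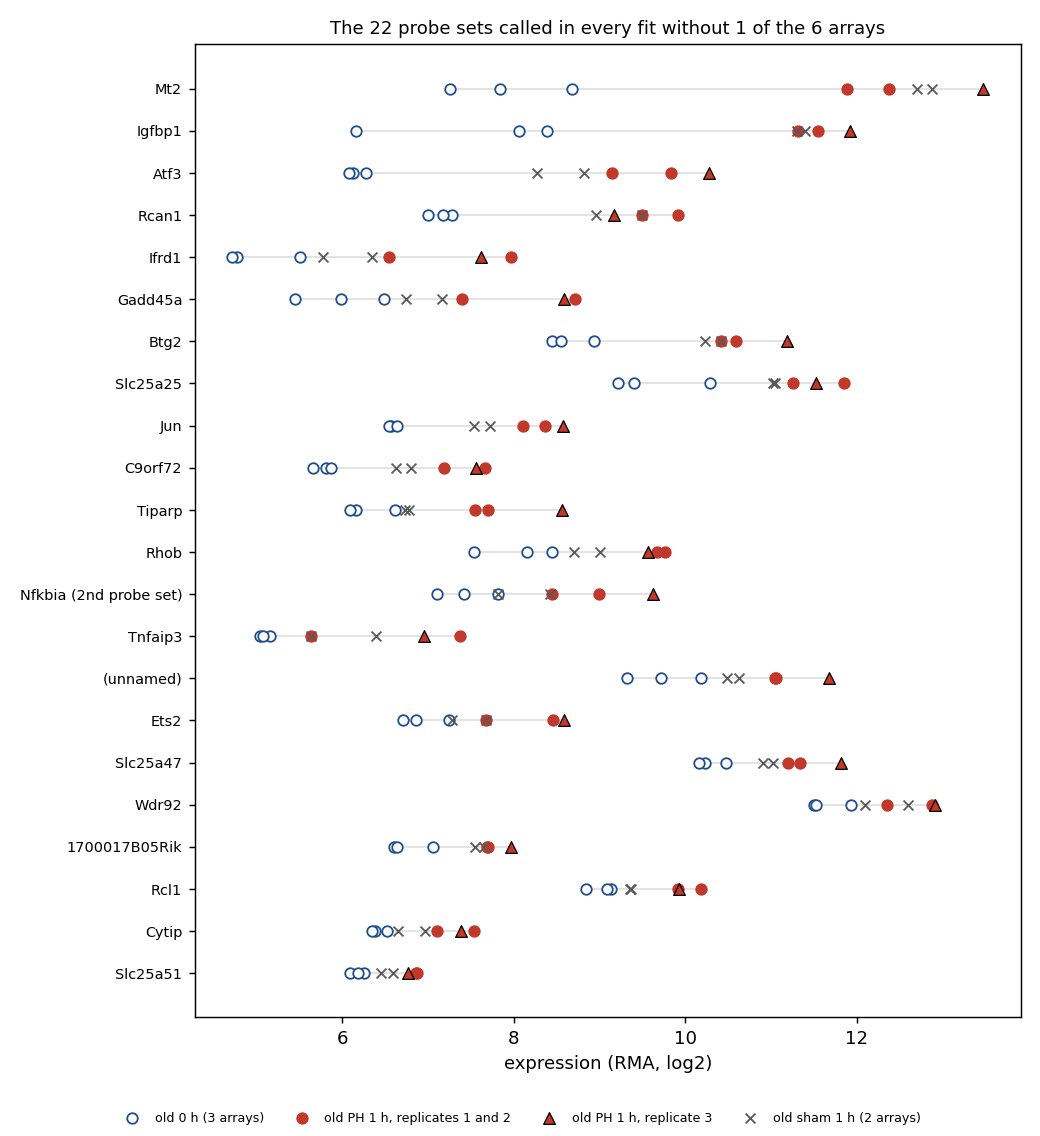
Expression (RMA, log2) of the 22 probe sets called in every fit that left out 1 of the 6 arrays, with old 0 h arrays as open circles, old PH 1 h replicates 1 and 2 as filled circles, PH replicate 3 as a triangle and old sham 1 h arrays as crosses. Every PH point lies to the right of every 0 h point of the same gene. For Mt2 the PH arrays ran from 11.89 to 13.47 and both sham arrays lay within that range.

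Among 17 measured genes of the AP-1 and ATF/CREB families, 5 were called higher and 0 lower (29.4%, against 1.42% of all genes), with a median difference of 0.36. All lists were chosen with earlier results of these data known, and some genes stand in several lists. Their shares are descriptions and not separate tests, to be read beside 1.42% higher and 0.448% lower over all genes. With PH replicate 3 left out, Atf3, Jun and Jund were called, and the median was 0.40. Fos, the classical serum-induced gene, was at 6.69, 4.83 and 4.93 at 0 h and at 9.49, 7.76 and 9.36 after PH. The first 0 h array lay well above the other 2, and the 10.4-fold rise (3.39 ± 0.92) was just past the threshold (adjusted p = 0.0495). The Fos difference without PH replicate 3 was 3.14 (adjusted p = 0.358), and its second probe set, at 4.92 and 4.95 in the group means, was not called. With the spike-in mean as a covariate in the fit the Fos difference was 1.64 (adjusted p = 0.607). Jund rose from 11.07, 10.79 and 10.68 to 12.12, 11.54 and 11.17 (0.76 ± 0.16, adjusted p = 0.00707). Junb rose from 8.24, 7.25 and 7.72 to 8.37, 8.75 and 8.57 (0.83 ± 0.19, adjusted p = 0.02, and 0.117 without PH replicate 3). The spike-in covariate brought the Junb difference to 0.49 (adjusted p = 0.381).

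Of 23 zinc finger and other early transcription factor genes, 7 were called higher (30.4%) and 0 lower, with a median of 0.57. Of these 23, only Ets2 was called without PH replicate 3, and the median was 0.49. Ets2, a target of RAS and MAP kinase signalling, moved from 7.24, 6.71 and 6.86 to 8.46, 7.68 and 8.58 (1.30 ± 0.22, adjusted p = 0.000786). Myc, a driver of growth and ribosome production, moved from 4.32, 3.79 and 4.58 to 6.14, 5.64 and 5.78. The groups did not overlap and the difference was 1.62 ± 0.38 (adjusted p = 0.0232), with 1.66 and an adjusted p of 0.11 when PH replicate 3 was left out. Bhlhe40, a repressor tied to the clock and to hypoxia, moved from 9.05, 7.07 and 7.45 to 8.70, 9.24 and 10.72. Here 0 h replicate 1 lay above PH replicate 1, and the difference of 1.7 became 1.12 without PH replicate 3 (adjusted p = 0.351). Klf6 rose by 1.51 ± 0.28 and the orphan nuclear receptor gene Nr4a1 by 1.45 ± 0.37, with adjusted p = 0.0537 and 0.108 without PH replicate 3. For Nr4a1 the fit with the spike-in covariate gave 0.61 (adjusted p = 0.606). Zfp36, whose product destabilises messenger RNA, rose by 1.22, and by 1.11 with PH replicate 3 left out. Egr1, another classical early gene, was at 9.65, 7.68 and 7.18 at 0 h and at 9.87, 9.28 and 10.33 after PH, and did not pass (1.66, adjusted p = 0.128).

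Early genes for signalling and feedback proteins gave the highest share of calls, with 11 of 29 higher (37.9%) and 0 lower and a median of 0.79. Leaving out PH replicate 3 left 6 called, namely Rcan1, Gadd45a, Slc25a25, Btg2, Rhob and Tnfaip3, and the median was 0.56. Dusp1, which encodes the phosphatase that switches off MAP kinases, moved from 8.52, 8.78 and 8.11 to 10.23, 10.55 and 10.50. The PH arrays were close to each other, and the rise of 1.96 ± 0.42 (adjusted p = 0.0103) was 1.92 without PH replicate 3, where it did not pass (adjusted p = 0.085). Gadd45b rose from 6.73, 6.72 and 6.65 to 7.56, 7.55 and 8.14 (1.05 ± 0.20, adjusted p = 0.00359, and 0.0993 without PH replicate 3). Both of its probe sets were called with all arrays and neither without PH replicate 3. The kinase gene Pim3 rose by 1.21 and Errfi1, for an inhibitor of the epidermal growth factor receptor, by 0.63, and neither was called without PH replicate 3, where the differences were 1.03 and 0.56.

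**Figure D3:**
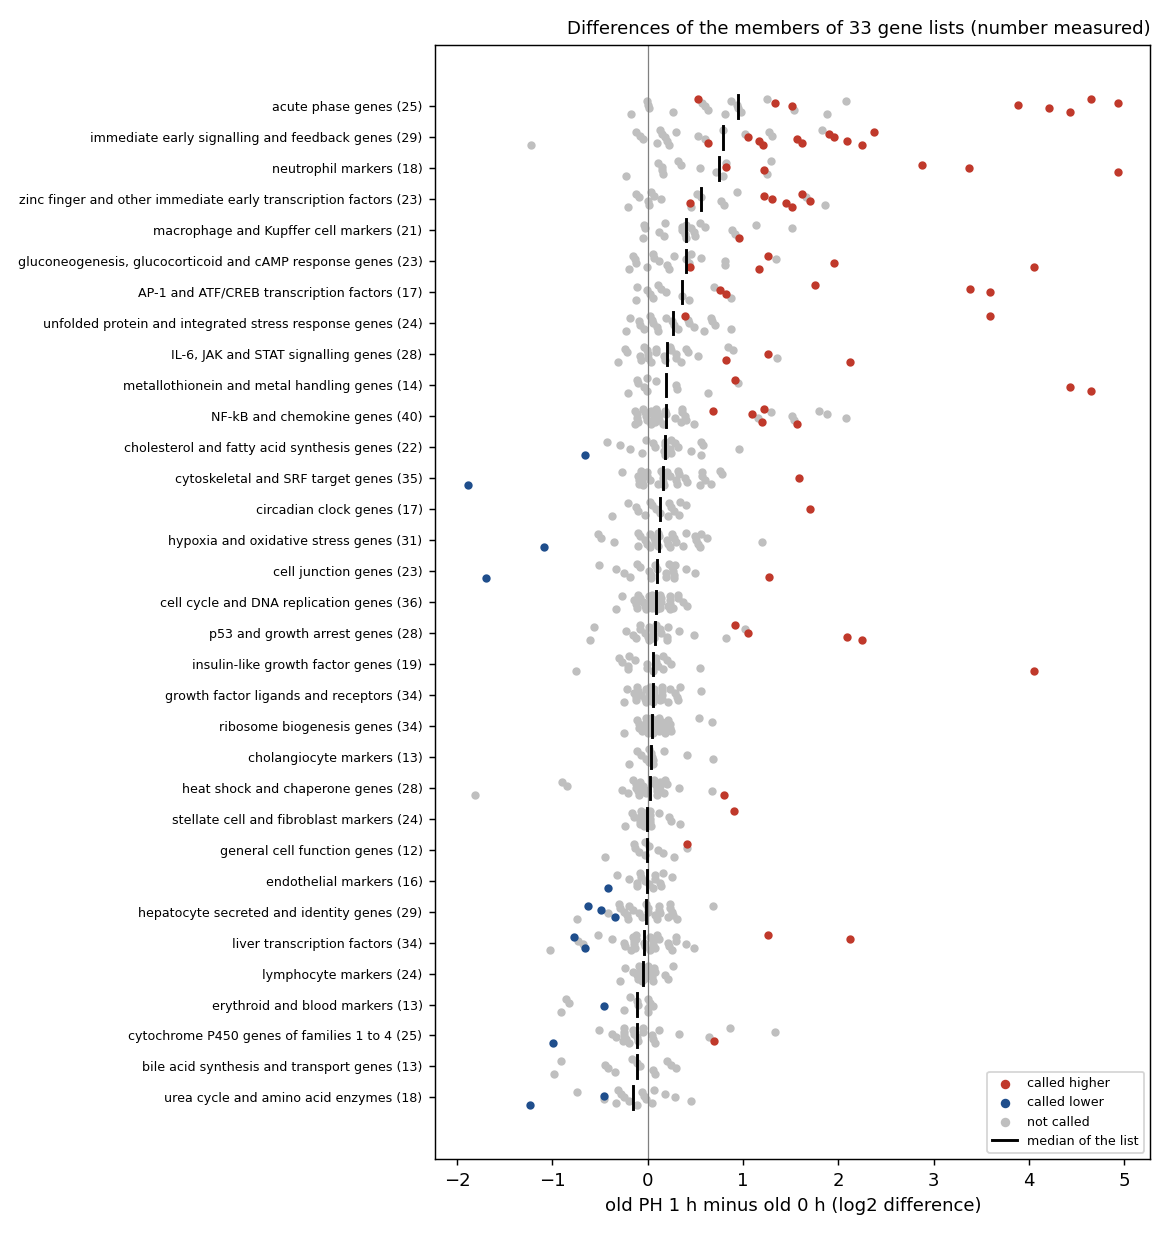
Log2 differences between old PH 1 h and old 0 h for the measured members of 33 gene lists, 1 point per gene, coloured by call, with a black bar at the median of each list. The acute phase list has the highest median, 0.95, and the immediate early lists have no member called lower.

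The metallothioneins, small metal-binding proteins of the liver, showed some of the largest changes on the array. Mt2 was at 8.68, 7.84 and 7.26 at 0 h and at 12.38, 11.89 and 13.47 after PH, a 25.2-fold rise (4.65 ± 0.78, adjusted p = 0.000786). Mt1 was at 9.28, 7.25 and 6.87 and then at 11.62, 11.71 and 13.36, a 21.5-fold rise (4.43 ± 0.84, adjusted p = 0.00358). PH replicate 3 was the highest array for both genes. Without it Mt2 still passed (4.21, adjusted p = 0.0181) and Mt1 did not (3.86, adjusted p = 0.0751). Of 14 metal-handling genes measured, 3 were called higher and 0 lower, the other being Slc11a2, an iron transporter gene, at 7.12, 7.66 and 7.09 and then 8.15, 7.61 and 8.86 (adjusted p = 0.0395, and 0.552 without PH replicate 3).

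Igfbp1, which insulin represses in hepatocytes, encodes a secreted protein that binds insulin-like growth factors. It rose 16.6-fold, from 8.39, 8.06 and 6.16 to 11.55, 11.31 and 11.92 (4.05 ± 0.57, adjusted p = 6.44e-05, and 3.89 without PH replicate 3). The PH arrays were close to each other while 0 h replicate 3 lay well below the other 0 h arrays. Its second, dim probe set stayed at 4.43 and 4.38 in the group means. It was the sole call among 19 insulin-like growth factor genes. In the list of gluconeogenic, glucocorticoid and cAMP response genes, 5 of 23 were called higher and 0 lower, with a median of 0.40, and without PH replicate 3 Igfbp1 alone was called. The others were Dusp1, Cebpb, Sgk1 and Klf9, of which Sgk1, a glucocorticoid-induced kinase gene, moved from 7.40, 6.73 and 6.09 to 7.53, 7.81 and 8.39 (adjusted p = 0.0389). The Sgk1 difference of 1.17 was 0.62 with the spike-in covariate (adjusted p = 0.522). The enzyme genes themselves did not pass. G6pc, for the last step of glucose release, was at 11.59, 10.96 and 10.67 and then at 12, 12.17 and 11.48 (0.81 ± 0.30, adjusted p = 0.164), and Pck1 differed by 0.40 (adjusted p = 0.326).

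Acute phase genes encode plasma proteins of inflammation, and 8 of the 25 measured were called higher and 0 lower, with a median of 0.95. The PH arrays all lay above the 0 h arrays for 20 of the 25, against 8.95% of all probe sets. Without PH replicate 3, 1 of the 25 was called, Mt2, which is also a metallothionein, and the median was 0.71. Lcn2, which encodes the iron-scavenging lipocalin 2, had the largest difference of the called genes. It was at 6.60, 6.11 and 5.6 at 0 h and at 10.95, 9.81 and 12.36 after PH, a 30.6-fold rise (4.93 ± 1.16, adjusted p = 0.0249), and its difference without PH replicate 3 was 4.27 (adjusted p = 0.265). Its second probe set, with group means of 6.37 and 6.87, was not called (0.51, adjusted p = 0.0848). Saa2, a serum amyloid gene, was at 7.89, 10.60 and 8.37 and then at 13.05, 12.86 and 13.56, an 18.5-fold rise (adjusted p = 0.0392, and 0.265 without PH replicate 3). Its probe set can also match other serum amyloid genes. The serum amyloid pseudogene Saa-ps was at 4.03, 4.81 and 3.94 and then at 6.23, 5.86 and 6.90 (2.07 ± 0.54, adjusted p = 0.0395, and 0.361 without PH replicate 3). Orm2, an orosomucoid gene, was at 8.60, 9.85 and 8.33 and then at 13.11, 11.76 and 13.58 (3.89 ± 0.99, adjusted p = 0.0392, and 0.316 without PH replicate 3). In Lcn2, Saa2 and Orm2 every PH array was above every 0 h array, and 0 h replicate 2 had the highest control value of Saa2 and Orm2. Orm3 rose by 1.52, Lbp, for the endotoxin-binding protein of plasma, by 1.34 and Crp, for C-reactive protein, by 0.53, and these differences were 1.22, 1.03 and 0.46 without PH replicate 3, where none was called.

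The transcription factor genes that serve this response rose as well. Cebpd moved from 7.84, 6.83 and 6.66 to 8.71, 9.36 and 9.64 (2.13 ± 0.40, adjusted p = 0.00349), and Cebpb from 9.94, 9.02 and 9.20 to 10.67, 10.64 and 10.63 (1.26 ± 0.26, adjusted p = 0.00812). Without PH replicate 3 the adjusted p was 0.0562 for both, and the Cebpb difference was 1.27. With Junb they were the 3 calls among 28 IL-6, JAK and STAT genes (10.7%), of which 0 were called lower. Socs3, whose product damps STAT3 activation, was at 7.15, 6.35 and 7.07 and then at 7.29, 7.6 and 8.37 (0.90 ± 0.31, adjusted p = 0.127). Its dimmer probe set rose by 1.5 (adjusted p = 0.0342) and was not called without PH replicate 3.

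Of 40 NF-kB and chemokine genes, 5 were called higher (12.5%) and 0 lower, with a median of 0.19. With PH replicate 3 left out, Tnfaip3 alone was called and the median was 0.21. Tnfaip3, which encodes the NF-kB inhibitor A20, was flat before surgery at 5.16, 5.04 and 5.07 and reached 7.37, 5.64 and 6.95 after PH (1.57 ± 0.28, adjusted p = 0.00184). PH replicate 2 lay far below the other PH arrays but above the 0 h arrays. Nfkbia, for the inhibitor that holds NF-kB in the cytoplasm, moved from 8.80, 8.28 and 8.29 to 9.51, 8.97 and 10.50 by its brighter probe set (1.20 ± 0.27, adjusted p = 0.016, and 0.338 without PH replicate 3). Its dimmer probe set rose by 1.57 and passed without each array in turn. Nfkbiz and Cxcl13 are not among the 40. Nfkbiz, an inducible nuclear co-regulator of NF-kB, moved from 6.68, 6.19 and 6.18 to 8.85, 7.26 and 9.36 (2.14 ± 0.38, adjusted p = 0.00139, and 0.0537 without PH replicate 3). The interleukin genes Il1a and Il1b differed by 0.69 and 1.22, and the receptor gene Tnfrsf1b by 1.10, and none of the 3 passed without PH replicate 3. Cxcl13, a chemokine gene for B cells, was at 4.04, 4.04 and 3.79 at 0 h and at 6.05, 4.04 and 9.20 after PH, so that its difference of 2.47 (adjusted p = 0.0248) was carried by replicates 1 and 3 and fell to 1.09 without replicate 3.

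Some neutrophil markers were called beside these inflammatory genes. Of 18 neutrophil markers, 5 were called higher and 0 lower (Lcn2, S100a8, S100a9, Il1b and Fpr2), with a median of 0.75. Their summed level was 10.55, 10.35 and 10.40 in the 0 h arrays and 11.92, 11.20 and 13.33 in the PH arrays. The sum is of unlogged values, so that bright genes weigh most. Lcn2, also an acute phase gene, was at 10.95, 9.81 and 12.36 after PH and makes up a large part of it there. S100a8, for a subunit of the neutrophil protein calprotectin, was at 5.15, 4.88 and 4.87 and then at 8.15, 6.59 and 10.27 (3.37 ± 0.63, adjusted p = 0.0031), and S100a9, for its partner, at 5.53, 4.97 and 5.40 and then at 8.0, 6.64 and 9.88 (2.88 ± 0.50, adjusted p = 0.00128). Both were above the 0 h range in every PH array, with adjusted p = 0.1 and 0.051 without PH replicate 3. Other neutrophil markers were not called. Mpo, for myeloperoxidase, was at 4.69, 4.40 and 4.51 at 0 h and at 4.46, 4.45 and 7.05 after PH. Elane, for neutrophil elastase, was at 6.88, 6.73 and 6.75 and then at 6.87, 6.90 and 8.76, and Camp, for cathelicidin, at 6.93, 6.85 and 6.90 and then at 6.86, 6.85 and 8.62. Of the 1 h PH arrays only replicate 3 lay well above the controls for these 3 genes, and none was called. Replicate 1 was the highest of the old PH 0.5 h arrays for them, at 6.71 for Mpo, 8.09 for Elane and 8.05 for Camp. Ngp and Ltf, for granule proteins, differed by 1.25 and 0.32 at 1 h, and by 0.17 and -0.11 without PH 1 h replicate 3. Prtn3, for proteinase 3, was at 6.0, 5.52 and 5.59 and then at 6.23, 6.71 and 8.06, so that every PH array was above the 0 h range, and it was not called (1.30, adjusted p = 0.14). Mmp9, Csf3r, Cxcr2 and Ly6g differed by 0.11, -0.22, 0.16 and 0.16.

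Of 21 macrophage and Kupffer cell markers, Marco was called higher and 0 were called lower. The Marco difference of 0.95 was 0.47 with PH replicate 3 left out. Their summed level was 11.93, 11.72 and 11.33 at 0 h and 11.97, 11.67 and 13.40 after PH. Cd14, the co-receptor for endotoxin, was at 8.28, 8.30 and 8.06 and then at 8.85, 8.46 and 11.85, and Lyz2, for lysozyme, at 7.26, 6.89 and 6.23 and then at 7.78, 6.61 and 9.42. PH replicate 3 was again the highest array. Mpo, Elane, Camp, Ngp, Ltf, Prtn3, Mmp9, Csf3r, Cxcr2, Ly6g, Cd14 and Lyz2 were picked out after their values were seen. Without PH replicate 3, 0 neutrophil and 0 macrophage markers were called, and the list medians were 0.15 and 0.07. Fpr2 differed by 0.82 with that array and by 0.24 without it. The erythroid and blood markers summed to 12.9 to 13.7 at 0 h and to 11.8 to 13.5 after PH. In whole liver, more cells of a type and more RNA per cell cannot be told apart, and the part of these markers in the rises of Lcn2, Il1b or the other inflammatory genes was not tested.

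Of 28 p53 and growth arrest genes, 4 were called higher (14.3%) and 0 lower, being Gadd45a, Gadd45b, Btg2 and Fas, with a median of 0.08. Gadd45a and Btg2 were called without PH replicate 3. Fas, a death receptor gene, was at 3.98, 4.24 and 4.24 and then at 4.69, 4.57 and 5.94 (0.91, adjusted p = 0.0392), with 0.48 and an adjusted p of 0.596 when PH replicate 3 was left out. Cdkn1a, for the cell cycle inhibitor p21, was at 8.20, 8.17 and 8.22 and then at 8.44, 8.21 and 8.54 by its brighter probe set (0.20, adjusted p = 0.398). The dimmer Cdkn1a probe set rose by 1.24 (adjusted p = 0.0129), so that the probe sets disagree, and it was not called without PH replicate 3. Among 28 heat shock and chaperone genes, the small heat shock gene Hspb8 was the sole call (3.57%). It moved from 9.84, 9.39 and 9.83 to 10.51, 10.58 and 10.37 (0.80 ± 0.16, adjusted p = 0.00707). Its call held without PH replicate 3 (adjusted p = 0.0263) and was lost without 0 h replicate 2 (0.0767). A second, dimmer Hspb8 probe set differed by 0.22 and was not called (adjusted p = 0.395). In the list of unfolded protein and integrated stress response genes, 2 of 24 were called higher (8.33%), Atf3 and the amino acid transporter subunit gene Slc3a2. The Slc3a2 difference of 0.40 was 0.30 without PH replicate 3, where it was not called (adjusted p = 0.456). The gap junction gene Gja1 rose by 1.27 ± 0.24 (adjusted p = 0.00376, and 0.0828 without PH replicate 3), and it was called with Sdc4, which fell, among 23 junction genes.

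Genes that fell were fewer, and without PH replicate 3 none of the 51 was called. Several were genes of mature hepatocytes. Inmt, a methyltransferase gene, was at 11.10, 11.32 and 11 at 0 h and at 9.98, 10.66 and 7.95 after PH, 3.06-fold lower (adjusted p = 0.0248). Mup5, a major urinary protein gene with near-identical relatives, was at 13.06, 13.19 and 13.31 and then at 13.08, 12.59 and 9.80. Bhmt, which remethylates homocysteine, was at 12.41, 12.34 and 12.51 and then at 12.18, 11.66 and 9.74, and Cyp2f2, a cytochrome P450 of periportal hepatocytes, at 11.78, 11.69 and 11.89 and then at 11.72, 11.13 and 9.51. In all 4 genes PH replicate 3 lay far below the other PH arrays. Without it the difference of Inmt was -0.82 in place of -1.61, that of Mup5 -0.35 in place of -1.36, that of Bhmt -0.50 in place of -1.23 and that of Cyp2f2 -0.36 in place of -1.0. With the spike-in covariate the difference of Bhmt was -0.80 (adjusted p = 0.446) and that of Inmt -1.86 (adjusted p = 0.0497).

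In Foxa2, Gm2a, Rsrp1 and Srebf1 PH replicate 3 did not lie far below the other PH arrays. Foxa2, a pioneer transcription factor gene of the liver, was at 8.09, 8.5 and 8.17 and then at 7.20, 7.87 and 7.39 (-0.77 ± 0.16, adjusted p = 0.0107), with -0.72 and an adjusted p of 0.11 when PH replicate 3 was left out. Gm2a, for a lysosomal activator protein, was at 9.49, 9.19 and 9.30 and then at 8.82, 8.57 and 8.52 (-0.69 ± 0.13, adjusted p = 0.0039, and 0.0626 without PH replicate 3), and the spike-in covariate brought its difference to -0.44 (adjusted p = 0.201). Rsrp1 was at 9.92, 9.51 and 9.39 and then at 8.67, 8.53 and 8.36 (-1.09 ± 0.24, adjusted p = 0.0189, and 0.162). Srebf1, the regulator of lipid synthesis genes, was at 10.26, 9.95 and 9.60 and then at 9.40, 9.36 and 9.06 (-0.66 ± 0.18, adjusted p = 0.0495, and 0.444). With the spike-in covariate Srebf1 differed by -0.89 (adjusted p = 0.035). Ttr, the transthyretin gene, was at 10.95, 11.04 and 11.06 and then at 10.70, 10.56 and 9.90, a difference of -0.63 that was -0.39 without PH replicate 3. Apoa2 and Apoh, which encode plasma apolipoproteins, fell by 0.49 and 0.35, with -0.44 and -0.32 when that array was left out, and Apoa2 differed by -0.28 with the spike-in covariate. Ttr, Apoa2 and Apoh were the 3 calls among 29 hepatocyte identity genes, where 0 were called higher and the median was -0.02. Alb itself was at 13.96, 13.90 and 13.77 and then at 13.84, 13.52 and 13.79 (-0.16, adjusted p = 0.414). Among 34 liver transcription factor genes, 2 were called higher (Cebpb and Cebpd) and 2 lower (Foxa2 and Srebf1), and Cebpa differed by -0.24 (adjusted p = 0.63). The other genes among the 20 largest falls were Erdr1 (-1.34 ± 0.35, adjusted p = 0.0416), Nab2 (-0.80), Mug1 (-0.66), Epb41l4a (-0.58), Aadac (-0.57), Txnl1 (-0.56), Sdhb (-0.56) and Ivd (-0.56). The second probe sets of Bhmt, Erdr1, Epb41l4a and Apoa2 differed by -0.19, -0.18, -0.11 and 0.07, and none of these was called. With the spike-in covariate the differences of Mug1 and Txnl1 were -0.41 and -0.29, and neither was called.

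The probe sets named for the 2 actin genes moved apart. Actb, for beta-actin, was at 9.09, 9.62 and 9.91 at 0 h and at 8.46, 7.29 and 7.21 after PH (-1.89 ± 0.51, adjusted p = 0.0475), and its second probe set also fell by 2.78. Actg1, for gamma-actin, rose from 9.96, 10.01 and 9.43 to 11.47, 11.10 and 11.59 (1.59 ± 0.40, adjusted p = 0.0373). The array's control probe set for the 3′ end of beta-actin, the transcript of Actb, was brighter. It was at 12.5, 12.6 and 12.6 at 0 h and at 12.8, 12.8 and 13.1 after PH. The groups differed by 0.33, upward (exact permutation p = 0.1, the smallest possible). Probe sets for beta-actin thus disagree, and whether its RNA fell cannot be told here. Neither gene was called without PH replicate 3, where the differences were -1.66 and 1.49. Sdc4, a cell surface proteoglycan gene, was at 9.39, 9.39 and 9.46 and then at 8.87, 6.75 and 7.52, and Sod1, for superoxide dismutase, at 10.70, 10.87 and 11.03 and then at 10.62, 9.33 and 9.39. For these 2 genes PH replicate 1 was close to the controls and replicates 2 and 3 were lower. With the spike-in mean as a covariate Actb differed by -0.54 (adjusted p = 0.716), Sdc4 by -0.67 in place of -1.7 (adjusted p = 0.662) and Sod1 by -0.45 in place of -1.09 (adjusted p = 0.521), so that none of these 3 was called. Of the 6 fits without 1 array, Sdc4 was called in 1 and Sod1 in 2.

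**Figure D4:**
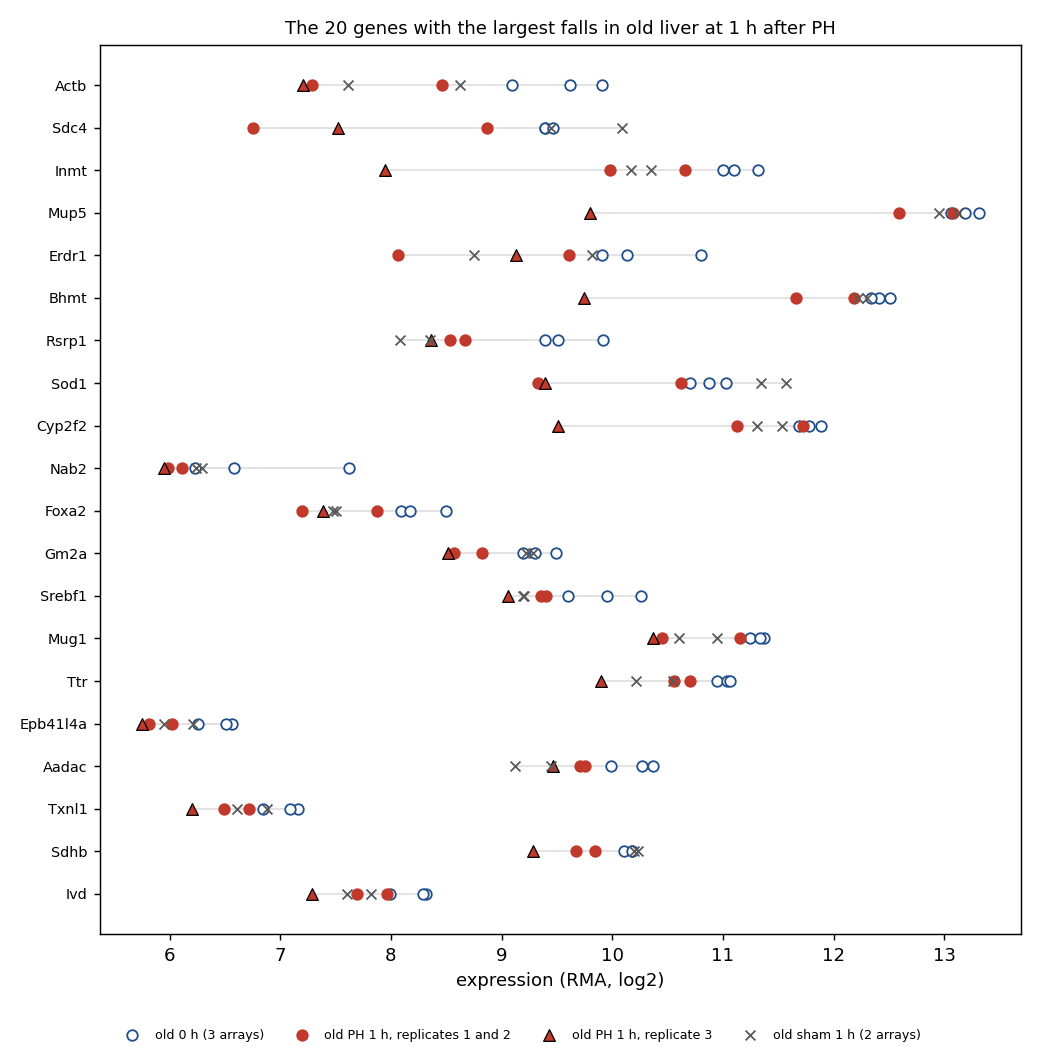
Expression (RMA, log2) of the 20 genes with the largest falls in old liver 1 h after PH, with old 0 h arrays as open circles, PH replicates 1 and 2 as filled circles, PH replicate 3 as a triangle and old sham 1 h arrays as crosses. For Inmt, Mup5, Bhmt and Cyp2f2 the triangle lies far to the left of the other PH points, and for Foxa2, Gm2a and Rsrp1 it lies among or beside them.

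Of 36 cell cycle and DNA replication genes, 34 ribosome biogenesis genes, 34 growth factor and receptor genes and 13 bile acid genes, 0 were called in either direction by limma, with medians of 0.09, 0.05, 0.05 and -0.11. At an unadjusted p under 0.05, 8, 2, 4 and 4 of them passed, against 15.2% of all probe sets. Rcl1, the ribosomal RNA processing gene that was called higher (0.99, adjusted p = 0.000786), is not on the ribosome biogenesis list. Ccnd1, for cyclin D1, was at 7.05, 6.92 and 6.70 and then at 6.70, 7.14 and 7.78 (0.32 ± 0.18, adjusted p = 0.422). Cdk4 differed by 0.13, Imp3 and Nop10, for nucleolar proteins, by 0.12 and -0.05, and Egfr, the receptor for epidermal growth factor, by 0.15. The other Egfr probe sets differed by 0.88 and 0.15 (adjusted p = 0.196 and 0.815), and neither was called. Hgf, the hepatocyte growth factor gene, lay between 2.94 and 3.29 in all 6 arrays. Slc10a1, the sodium-dependent bile acid importer gene, differed by -0.45 (adjusted p = 0.122), with 1 of its 3 probe sets called lower, and Cyp7a1, for the first enzyme in making bile acids from cholesterol, by -0.41 with wide spread in both groups. Lymphocyte and cholangiocyte markers gave 0 calls by limma among 24 and 13 genes, with 2 and 2 at an unadjusted p under 0.05.

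The remaining lists had 1 or 2 calls each, and none of these calls held without PH replicate 3. As 1.42% of all genes were called higher and 0.448% lower, 1 call in lists of this size says little about a list. Among 18 urea cycle and amino acid enzyme genes, 2 were lower, Bhmt and Gnmt, the glycine methyltransferase gene of the same methyl cycle, which fell by 0.46, and by 0.28 without PH replicate 3. Their list median was -0.15 with PH replicate 3 and -0.04 without it. Of 25 cytochrome P450 genes, Cyp2f2 was lower and Cyp3a13 was higher (0.70 ± 0.19, and 0.55 without PH replicate 3). Srebf1 was the 1 call, lower, among 22 cholesterol and fatty acid synthesis genes, and Sod1 the 1 call, lower, among 31 hypoxia and oxidative stress genes. Bhlhe40 was the 1 call, higher, among 17 clock genes, and Actg1 and Actb were the 2 calls among 35 cytoskeletal genes. Among markers of other cell types, Sox18 was lower among 16 endothelial markers, Col4a1, for basement membrane collagen, was higher among 24 stellate cell and fibroblast markers, and Car1, for a red cell carbonic anhydrase, was lower among 13 erythroid markers. Without PH replicate 3 the differences were -0.39 in place of -0.42 for Sox18, 0.44 in place of 0.91 for Col4a1 and -0.30 in place of -0.46 for Car1. Ywhaz was higher among 12 genes of general cell function (0.41 ± 0.10), with 0.38 when PH replicate 3 was left out and 0.26 with the spike-in covariate.

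The old PH livers at 0.5 h, 2 h and 4 h place these values in time. These comparisons use the same 1 h arrays and are given side by side. Between 0.5 h and 1 h, 45 probe sets were called (0.362%), 39 higher (0.314%) and 6 lower (0.0483%), and between 1 h and 2 h 65 were called (0.523%), 38 higher (0.306%) and 27 lower (0.217%). Leaving out 1 array gave 7 to 125 and 21 to 134 calls, in both cases fewest without PH 1 h replicate 3. Rcan1 was at 7.90, 7.34 and 7.91 at 0.5 h, and the rise to 1 h was 1.81 ± 0.26 (adjusted p = 0.000193). It was at 10.39, 10.77 and 10.54 at 2 h, a further 1.04 that did not pass (adjusted p = 0.0545). C9orf72 rose on both sides of 1 h, by 1.33 from 0.5 h (adjusted p = 0.00295) and by 1.33 to 2 h (adjusted p = 0.00671), where it was at 8.97, 8.81 and 8.62. Myc was at 4.21, 3.85 and 4.30 at 0.5 h, at the 0 h level, and rose by 1.73 by 1 h (adjusted p = 0.0285), with a mean of 6.05 at 2 h and 5.81 at 4 h. When PH 1 h replicate 3 was left out, the rises from 0.5 h of Rcan1 (1.99) and C9orf72 (1.29) and the further rise of C9orf72 to 2 h (1.38) were still called, and that of Myc was not (1.77, adjusted p = 0.161).

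Tnfaip3 had its highest mean at 1 h among the 5 times in old liver. It was at 5.78, 5.06 and 5.20 at 0.5 h, rose by 1.31 from there to 1 h (adjusted p = 0.0279) and fell by 1.39 to 2 h (adjusted p = 0.0153), where the arrays were at 5.39, 5.16 and 5.23. Jun fell by 1.00 between 1 h and 2 h (adjusted p = 0.0249), to 7.30, 7.22 and 7.52. Fos had a mean of 7.13 at 2 h and 6.26 at 4 h, and its fall of 1.73 from 1 h to 2 h did not pass (adjusted p = 0.526). At 0.5 h Fos was at 4.48, 4.40 and 10.75 and Mt2 at 13.25, 8.26 and 8.23, so that 1 array was high in each case, replicate 3 for Fos and replicate 1 for Mt2. Mt2 and Igfbp1 kept their 1 h levels, with means of 13.03 and 11.53 at 2 h and of 13.41 and 11.78 at 4 h. Hhex, a homeobox gene of liver development, was at 7.46, 8.02 and 7.45 at 1 h and fell by 1.59 to 2 h (adjusted p = 0.0107), and Ppl, for the junction protein periplakin, rose by 1.66 in that hour (adjusted p = 0.00671). When PH 1 h replicate 3 was left out, Hhex (-1.69) and Ppl (1.73) were still called, while the rise and fall of Tnfaip3 (1.16 and -1.24, adjusted p = 0.372 and 0.101) and the fall of Jun (-0.89, adjusted p = 0.163) were not.

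**Figure D5:**
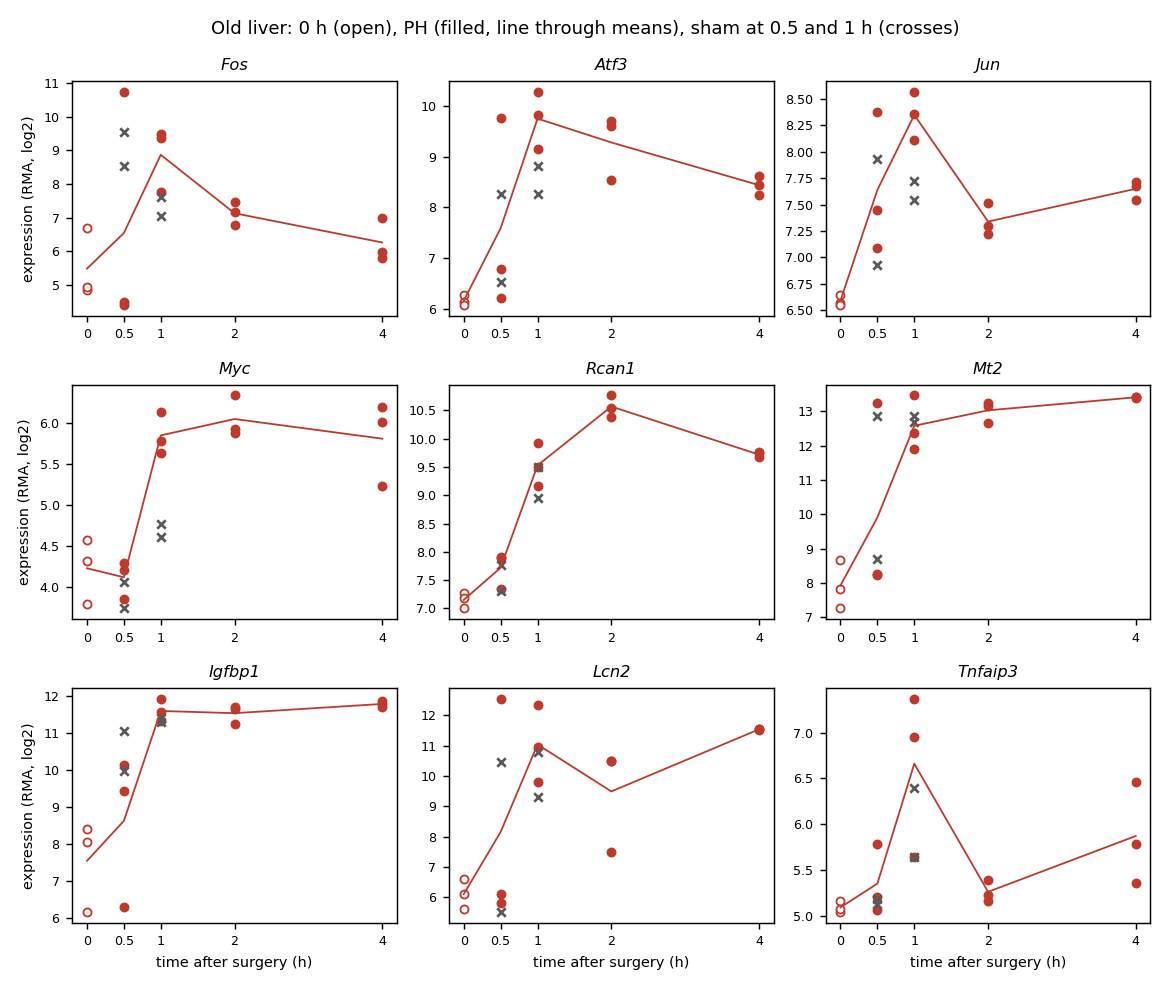
Expression (RMA, log2) of 9 genes in old liver against time after surgery, with 0 h arrays as open circles, PH arrays as filled circles joined through their means, and sham arrays at 0.5 h and 1 h as crosses. Tnfaip3 has its highest mean at 1 h and lies between 5.16 and 5.39 at 2 h, whereas Mt2 and Igfbp1 stay at their 1 h level to 4 h and the 1 h sham arrays lie close to the PH arrays for both.

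Old liver 1 h after a sham operation was compared as well. The sham arrays of the series stood apart from all others on the first principal component of the 46 arrays (lowest sham score 7.75, highest other score 6.27), and the old sham group at 1 h has 2 arrays. Between old PH and old sham at 1 h, 5282 probe sets were called (42.5%), 2096 higher (16.9%) and 3186 lower (25.6%) after PH, and 2302 were called without sham replicate 2. Calls are therefore read here by gene beside the array values, and whether PH or the sham arrays' own difference gave them cannot be told apart. Several of the strongest risers were also high after sham surgery. Mt2 was at 12.87 and 12.70 in the sham arrays (PH minus sham -0.20, adjusted p = 0.871), Mt1 at 12.70 and 12.62, Igfbp1 at 11.30 and 11.40 (0.24, adjusted p = 0.783), Rcan1 at 8.96 and 9.5 and Btg2 at 10.41 and 10.23. None of these 5 passed against sham, with standard errors of the difference between 0.29 for Rcan1 and 0.94 for Mt1, which does not show that PH and sham were alike.

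Other genes were higher after PH than after sham. Nfkbiz was at 6.35 and 6.01 in the sham arrays, at the 0 h level, and PH exceeded sham by 2.31 ± 0.42 (adjusted p = 0.000102). Ifrd1 was at 6.35 and 5.77 (PH higher by 1.32, adjusted p = 0.00451), Gadd45a at 7.16 and 6.74 (1.28, adjusted p = 0.0138), Myc at 4.61 and 4.77 (1.16, adjusted p = 0.0255), Jun at 7.54 and 7.72 (0.72, adjusted p = 0.0207), C9orf72 at 6.63 and 6.80 (0.76, adjusted p = 0.0178) and S100a8 at 6.39 and 6.55 (1.86, adjusted p = 0.0328). Fos, at 7.61 and 7.05 after sham surgery, and Atf3, at 8.82 and 8.27, had higher PH means that did not pass against sham (1.54, adjusted p = 0.228, and 1.21, adjusted p = 0.106). Lcn2 was at 9.29 and 10.78 after sham surgery (1.00, adjusted p = 0.552). When PH replicate 3 was left out, Nfkbiz (1.87, adjusted p = 0.00192) and Ifrd1 (1.20, adjusted p = 0.0245) were still called against sham. The other 5 were not, with differences of 1.10 for Gadd45a, 1.20 for Myc, 0.61 for Jun, 0.71 for C9orf72 and 0.90 for S100a8 (adjusted p = 0.0651, 0.0511, 0.091, 0.0571 and 0.318). PH replicate 2, at 6.59 for S100a8, was close to the higher sham array.

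The same comparison in young liver was set beside that in old liver. Of the 150 probe sets higher in old liver, 141 had a positive difference in young liver (94%), against 53.3% of all probe sets positive in old, and of the 51 lower, 48 were negative (94.1%, against 75.4%). The median differences of the called probe sets were 0.94 in old and 0.36 in young for the higher ones, and -0.56 and -0.21 for the lower ones, but they were selected for their size in old liver. Rcan1 rose by 2.37 in young (from a mean of 7.47 to 9.84), Igfbp1 by 4.03, C9orf72 by 1.67 and Mt2 by 4.15. Some named genes had unlike values. Lcn2 was at 9.05, 5.09 and 4.92 in the young PH arrays, where the difference was 1.54 (adjusted p = 0.723), and Tnfaip3 at 5.59, 5.20 and 5.31 (0.22, adjusted p = 0.867). Fos rose by 5.44 in young, from 4.35, 4.36 and 3.56 to 9.30, 10.05 and 9.25. When the age difference itself was tested, limma called 0 probe sets, with 607 (4.89%) at an unadjusted p under 0.05 and a smallest adjusted p of 0.709. Leaving out young PH replicate 1 gave 8 calls, old PH replicate 2 gave 3, and old 0 h replicate 1 gave 1. The difference of the changes, old minus young, was 3.39 ± 1.64 for Lcn2, 1.35 ± 0.40 for Tnfaip3 and -2.06 ± 1.30 for Fos (adjusted p = 0.996, 0.984 and 0.996).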

How the data were processed

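Whole liver RNA from 46 arrays of the Affymetrix Murine Genome U74v2 was analysed. The values are the deposited log2 expression values, made by the authors with RMA per the submitters' processing notes. The version of RMA is not given in the sources used here, nor is it stated whether all 46 arrays entered one normalisation. Of 12488 probe sets, 66 controls were left out and 12422 were tested. A single gene symbol was assigned to 10833, several to 396 and none to 1193, and only the first kind was named, giving 8251 genes.

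Group means of 18 groups were fitted to all 46 arrays with the lmFit and eBayes functions of limma 3.58.1 under R 4.3.3 (28 residual degrees of freedom), so that all groups share 1 estimate of the spread. P-values were adjusted by Benjamini-Hochberg over 12422 probe sets, with a threshold of 0.05. Errors after ± are standard errors of the difference from this fit (n = 3 arrays a group, 2 for sham). Control probe sets were compared by exact permutation tests. The method was tested on simulated data with independent noise of the same spread in every array. No divergent array such as PH replicate 3 was simulated, so that test does not cover its effect on the calls. Genes were eligible to be named if they were among the 20 called genes with the largest rise or the 20 with the largest fall, among up to 5 called members of a list, among the leading genes of another comparison, or in a set of reference genes. Not every eligible gene of the other comparisons is named. The members and lists were chosen with earlier results of these data known. Alternatives covered centring, a filter on dim probe sets, array weights, a spike-in covariate, fewer arrays in the fit, the replicate number as a block, and each array left out in turn.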

Additional observations from a re-analysis of the deposited data

Results flagged for a closer look

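Among the 5 genes with the smallest p for the age difference, 2 moved in opposite directions in all arrays of the 2 ages. Picking genes by that p favours such movement, and its share over all probe sets was not counted. Dync1h1, which encodes the heavy chain of cytoplasmic dynein, was at 7.99, 7.89 and 8.08 at 0 h and at 8.11, 8.24 and 8.65 after PH in old liver. In young liver it was at 8.13, 7.94 and 8.06 and then at 7.82, 7.74 and 7.86. The old change minus the young change was 0.58 (limma adjusted p = 0.851). Tgoln1, for a protein of the trans-Golgi network, was at 9.03, 9.42 and 9.15 and then at 9.49, 9.60 and 9.49 in old liver, and at 9.52, 9.56 and 9.20 and then at 9.12, 9.07 and 8.98 in young liver. The difference of its changes was 0.70 (adjusted p = 0.851). Other Tgoln1 probe sets differed by -0.08, 0.21, 0.22 and 0.25 between PH and 0 h in old liver, and none of these was called. Neither difference passed the adjusted threshold.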

How the results depend on the processing

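Old PH 1 h against 0 h gave 201 calls, and 26 with the compared groups alone, 49 with the spike-in mean as a covariate, 74 without sham arrays in the fit and 23 with old 0 h and PH arrays alone. Leaving out 1 array gave 25 to 568. The other alternatives gave 154 to 226 calls, including 220 with the replicate number as a block, which ended the calls of Srebf1 and Sdc4. PH against sham gave 668 calls with the compared groups alone and 2302 to 5373 without 1 array, and 5120 with the block. The age difference gave 0 to 8 without 1 array. With the compared groups alone, 1 h against 0.5 h and 2 h against 1 h gave 0 calls each, and without 1 array 7 to 125 and 21 to 134. The deviations of same-numbered arrays from their group means had correlations of -0.22, 0.0078 and -0.30. In groups this small, 1 divergent array shifts the deviations of the others, so these correlations cannot decide whether the replicate numbers pair arrays. The labels do not say what the numbers mean.

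Some genes that were not called changed sign, and the cause was not tested. Without 1 array Cyp7a1 ran from -0.97 to 0.10, Hgfac from -0.16 to 0.16, Hgf from -0.051 to 0.11, Egfr from -0.044 to 0.45, Imp3 from -0.012 to 0.31, Cebpa from -0.50 to 0.067, Mpo from -0.076 to 1.22 and Camp from -0.036 to 0.85. With array weights Cyp7a1 was 0.13, Hgf -0.052 and Cebpa 0.034. With the spike-in covariate Hgfac was -0.15 and Slc27a5 0.057. Dim signal limits small differences.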
